A study of Homo sapiens with 29 samples.

Results

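Confluent and subconfluent cultures of LHCN-M2 human myoblasts were compared on 6 of the 29 arrays of the series. All 6 cultures received 20 nM nontargeting siRNA and stayed in growth media. The subconfluent group was harvested 24 h after transfection and the confluent group 48 h after transfection, each as 3 biological replicates with 1 array per culture. LHCN-M2 is a single immortalized clone of skeletal myoblasts that carries telomerase and CDK4 transgenes, so every culture also had a driver of the G1 to S transition that is not under normal control. The arrays were chosen by their labels alone. Among the other 23 arrays, 2 from nontargeting cultures kept for 96 h in growth media and 6 from ZNF148 siRNA cultures at 24 and 48 h are set beside the results where they help to read them. Nontargeting cultures labelled 48 h and 96 h in differentiation media, with 3 arrays each, are shown beside the muscle and cell cycle lists.

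Myoblasts divide at low density. Once they touch, they leave the cell cycle, express the transcription factor myogenin, fuse and build sarcomeres, the contractile units of muscle. MyoD and Myf5 mark the committed myoblast, ID proteins hold these factors inactive, and Notch and YAP signals respond to contact and keep cells undifferentiated. Growth media normally hold back fusion, and the comparison asked how much of this programme was already visible at confluence without a change of media.

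Density could not be separated from time or batch. All 24 h arrays lay on 1 slide and the 3 arrays at 48 h each lay on a slide of their own (slides 2, 3 and 4), scanned apart from the 24 h slide. Density, hours after transfection, slide and scan therefore cannot be told apart in any value below. The share of probes well above background was 42.4% to 48.4% at 24 h and 45.3% to 51.7% at 48 h.

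One array stood apart in its muscle genes. On replicate 1 at 48 h, 4210 probes differed by more than 2-fold from the mean of the other 2 arrays of its group, against 2630 to 3785 for the other 5 arrays. By more than 8-fold, 603 probes differed on replicate 1 and 548 on replicate 3. On replicate 1, 49 of 60 sarcomere genes and 30 of 43 genes of a second muscle list lay more than 2-fold above both others. So did 1129 of all 18398 tested genes on replicate 1, most of them outside the muscle lists. The level of ZNF148 on that array was 8.52 on the log2 scale, against 8.85 and 9.19 on replicates 2 and 3, 8.62 to 8.68 at 24 h and 6.53 to 6.91 in the ZNF148 siRNA cultures at 48 h. ZNF148 on this array was thus above the knockdown range. Its sarcomere median of 11.67 was nevertheless nearer to the ZNF148 siRNA cultures at 48 h (12.95 to 13.21) than to replicates 2 and 3 (5.98 and 5.96). In the S phase and the G2 and M phase lists, its change from 24 h was instead nearer to that of replicates 2 and 3. Its median differences from 24 h were -0.501 and -0.552, and those of replicates 2 and 3 lay between -0.196 and 0. With ZNF148 siRNA the median changes from 24 to 48 h were -3.003 and -4.054. Whether the culture, the array or its label accounts for the muscle values of replicate 1 was not tested, so the values of the 29-array fit for muscle genes carry that doubt. The ZNF148 change from 24 to 48 h was 0.19 ± 0.14 (SE, log2; adjusted p = 0.288), and 0.36 ± 0.13 (adjusted p = 0.0383) without replicate 1. Each comparison was therefore made with all 29 arrays in the fit and again with 28, leaving out this array.

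At 48 h, 1077 of 18398 tested genes were higher (5.85%) and 655 were lower (3.56%). A gene counted as higher or lower when it changed by more than 2-fold with an adjusted p below 0.05 in limma. Without replicate 1 the counts were 923 higher (5.02%) and 676 lower (3.67%). These shares over all genes are the background for the list and marker counts below. Both fits called 799 genes higher and 535 lower, and called 0 genes in opposite directions. Replicate 1 added 278 genes to the higher side, and 124 genes were called higher only without it. Over probes, 2476 were higher (6.4%) and 1914 lower (4.94%) of 38714, and without replicate 1, 2275 were higher (5.88%) and 1857 lower (4.8%). Of the called probes 56.4% were higher, and 69.1% with 75th percentile scaling in place of quantile normalization. The share was 47.8% with only these 6 arrays in the fit. The 3 arrays at 48 h lay fully above the 3 at 24 h in 21.8% of all genes and fully below them in 30.6%, so a lack of overlap alone was common. The RNA came from whole cultures, in which a larger share of cells of one state and more RNA per cell cannot be told apart.

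The leading rises were a muscle protein, secreted carriers and a cell cycle inhibitor. They were drawn from the 380 genes that were higher in both fits, well above background on all 6 arrays and without overlap between the groups. PTGDS, a prostaglandin D2 synthase that also carries lipids, had log2 signals of 8.77, 8.44 and 8.61 at 24 h against 13.16, 13.05 and 13.11 at 48 h. The difference was 4.50 ± 0.11 (adjusted p = 2.1e-16), a 22.7-fold rise, and 4.47 without replicate 1. The 3 confluent cultures were nearly equal. APOE, the lipid carrier apolipoprotein E, rose in the same even way, from 14.24, 14.02 and 14.20 to 17.98, 17.89 and 17.85 (difference 3.76 ± 0.10, adjusted p = 1.2e-15). APOC1, which lies in the same gene cluster, rose by 3.58 ± 0.13 (adjusted p = 1.76e-13). PTGDS, APOE and APOC1 hardly depended on replicate 1.

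Other leading rises differed in size between the confluent arrays. MYBPH, a myosin-binding protein of the thick filament, was 7.73, 7.55 and 7.63 at 24 h against 18.38, 12.51 and 12.51 at 48 h. Its difference was 6.83 ± 0.90 (adjusted p = 4.75e-06), and 4.87 ± 0.26 (adjusted p = 6.19e-11) without replicate 1, a 29.3-fold rise. CDKN1C, the CDK inhibitor p57, was 8.56, 8.61 and 8.64 at 24 h against 15.70, 11.56 and 11.44 at 48 h. Its difference was 4.30 ± 0.64 (adjusted p = 2.2e-05), and 2.90 ± 0.18 (adjusted p = 7.84e-10) without replicate 1. In both genes the lowest confluent array still lay more than 2-fold above the highest subconfluent one.

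RGS16, a regulator of G protein signaling, rose by 4.63 (3.11 without replicate 1), and TNNT2, a troponin T of the thin filament, by 4.34 (2.98). SOD3, the extracellular superoxide dismutase, rose by 4.26 (3.43), the membrane protein TMEM119 by 4.18 (3.23) and the cytokine IL32 by 3.55 (3.03). In RGS16, TNNT2, SOD3, TMEM119 and IL32 replicate 1 was the highest array. The 2 other arrays at 48 h lay clear of all 24 h arrays, which the criteria for the leading genes required. RGS16, TNNT2 and CDKN1C were not called when the spread was estimated from these 6 arrays alone. The 96 h growth arrays held values of 15.03 and 15.02 for MYBPH, 13.75 and 13.82 for CDKN1C, 13.70 and 13.76 for PTGDS and 18.26 and 18.31 for APOE.

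The leading falls were a surface protein, matrix genes and an ID gene, drawn from 280 genes by the same criteria. CD24, a small anchored surface glycoprotein, was 11.27, 11.22 and 11.04 at 24 h against 6.49, 5.74 and 5.75 at 48 h. The difference was -5.18 ± 0.15 (adjusted p = 2.38e-15), a 36.3-fold fall, and -5.43 without replicate 1. HAS1, a hyaluronan synthase, went from 13.22, 13.11 and 13.07 to 8.70, 8.85 and 8.94 (difference -4.30 ± 0.17, adjusted p = 4.3e-13), and all 3 of its probes were lower. For CD24 and HAS1 the gap between the groups was many times the spread within them.

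MMP3, the matrix protease stromelysin 1, went from 14.10, 13.99 and 14.10 to 9.79, 10.34 and 10.36 (difference -3.90 ± 0.15, adjusted p = 1.76e-13). MMP12, the macrophage elastase, changed by -3.59 ± 0.45 (adjusted p = 2.46e-06). Its confluent arrays disagreed, at 4.74, 4.74 and 6.57. ID3, an inhibitor of MyoD-type factors, was 11.82, 11.71 and 11.66 at 24 h against 9.69, 8.72 and 8.84 at 48 h (difference -2.65 ± 0.16, adjusted p = 3.29e-10). LYPD6 changed by -2.66, the intronic transcript KCNQ5-IT1 by -2.48, the growth factor CSF3 by -2.45, the helicase TDRD9 by -2.42 and NDN, the growth suppressor necdin, by -2.35. All of LYPD6, KCNQ5-IT1, CSF3, TDRD9 and NDN had dim signals at 48 h, between 5.02 and 7.46.

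**Figure D1:**
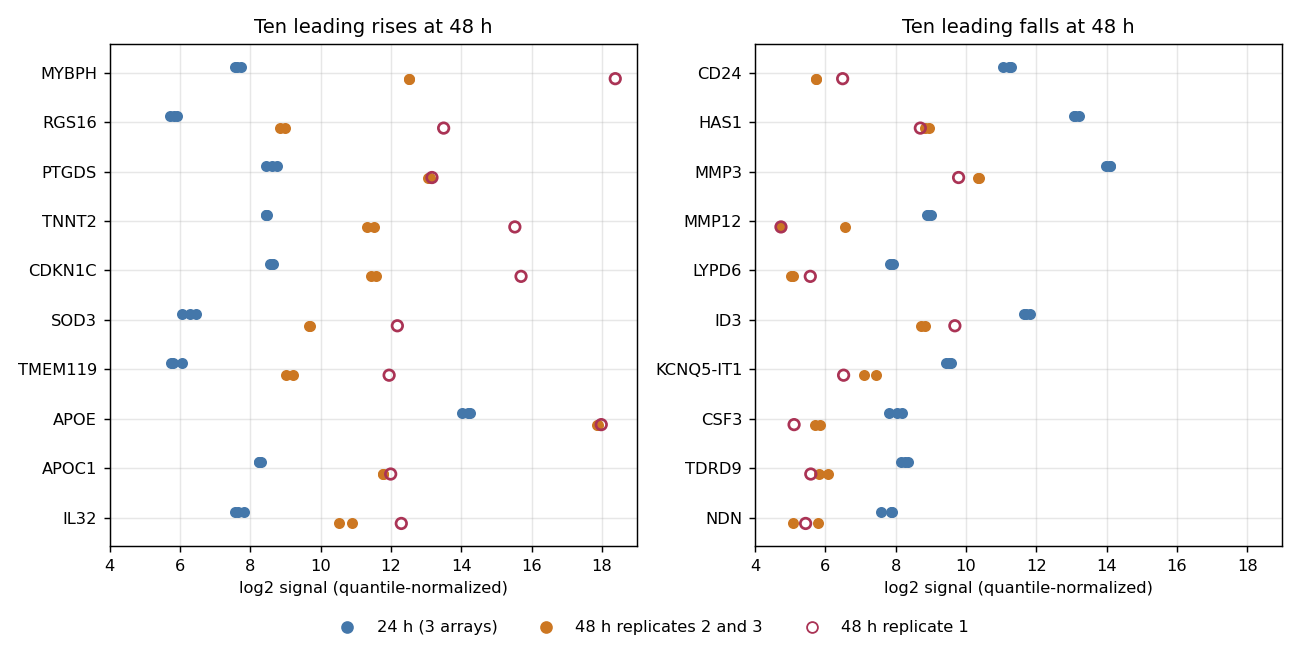
Log2 signal (x axis, quantile-normalized) of the 10 leading rises and 10 leading falls on the 3 arrays at 24 h (blue), replicates 2 and 3 at 48 h (orange) and replicate 1 at 48 h (open circle). PTGDS, APOE and APOC1 have all 3 confluent arrays close together, whereas replicate 1 lies far to the right for MYBPH, CDKN1C, TNNT2 and RGS16.

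About as many sarcomere genes rose as did not, and by very different amounts between the confluent arrays. Of 60 tested genes of the list, 31 were higher and 1 lower, with a median difference of 2.13 against -0.04 over all genes. Without replicate 1, 24 were higher and 3 lower, with a median of 0.68. The background was 5.85% higher with 29 arrays and 5.02% with 28. Both fits called 24 higher and 1 lower. When only these 6 arrays were in the fit, 7 sarcomere genes were called higher. On the log2 scale the list had a median signal of 4.90, 4.89 and 4.96 at 24 h, 11.67 on replicate 1 at 48 h and 5.98 and 5.96 on replicates 2 and 3. It was 7.09 and 7.47 at 96 h in growth media and 12.95 to 13.21 after 48 h of ZNF148 siRNA. Replicate 1 thus lay above the nontargeting cultures kept 48 h longer.

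MYL11, a regulatory light chain of fast myosin, was 4.91, 4.46 and 4.16 at 24 h, where 1 of 3 arrays was well above background, and 16.99, 10.66 and 10.53 at 48 h. Its difference was 8.22 ± 1.00 (adjusted p = 1.85e-06), and 6.09 ± 0.36 (adjusted p = 3.1e-10) without replicate 1. ACTA1, skeletal alpha-actin, was well above background on 2 of 3 arrays at 24 h and changed by 7.92 (5.70 without replicate 1). In MYL11 and ACTA1 even the lower confluent arrays lay more than 5 log2 units above the 24 h arrays.

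TNNC1, the slow and cardiac troponin C, changed by 7.38 (5.15), from 2 of 3 arrays well above background. MYH8, the perinatal myosin heavy chain, was not well above background on any 24 h array (measured means 1.95 at 24 h and 9.21 at 48 h). It was at least 25.3-fold higher at 48 h (adjusted p = 1.64e-05), and at least 5.01-fold higher without replicate 1 (adjusted p = 1.77e-11). MYH3, the embryonic myosin heavy chain, was 17.35 on replicate 1 and 8.55 and 8.70 on the others, against 5.07 to 5.63 at 24 h. Its difference was 6.10 (3.19 without replicate 1). MYH8 and MYH3 were not called when only these 6 arrays were in the fit.

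TNNC2, the fast troponin C, was 7.07, 6.66 and 6.91 at 24 h against 17.06, 7.84 and 7.78 at 48 h. Its difference of 4.02 (adjusted p = 0.0263) became 0.94 (adjusted p = 0.00311), below 2-fold, without replicate 1. TNNC2 thus passed 2-fold only with replicate 1. DES, the muscle intermediate filament desmin, rose from 13.81 to 13.90 at 24 h to 17.53, 15.68 and 15.45 (difference 2.36, and 1.70 without replicate 1). Genes lower without replicate 1 included MYOT and TMOD4, named after their values were seen. On replicates 2 and 3 neither was well above background. TMOD4, a pointed-end capper of thin filaments, was the 1 lower in both fits (difference -1.04, and at least 1.53-fold lower without replicate 1).

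The second muscle list held genes of fusion, the neuromuscular synapse, calcium handling and energy supply. Of its 43 tested genes, 18 were higher (41.9%, beside 5.85% of all genes) and 0 lower (median difference 1.20). Without replicate 1, 11 were higher (25.6%, beside 5.02%) and 3 lower (6.98%, beside 3.67%), with a median of 0.41. CKM, the muscle creatine kinase, was not well above background at 24 h (2.12, 2.10 and 2.64) and was 16.03, 5.83 and 5.91 at 48 h. It was at least 26.2-fold higher (adjusted p = 0.00107; means 2.29 and 9.26), and at least 2.5-fold higher without replicate 1 (adjusted p = 2.22e-08). The bound thus moved more than 10-fold with 1 array.

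CACNG1, a subunit of the muscle calcium channel, was at least 31.5-fold higher (5.84-fold without replicate 1; adjusted p = 0.000174 and 9.84e-07). RYR1, the calcium release channel, was at least 5.47-fold higher (1.9-fold; adjusted p = 0.000169 and 7.89e-05). APOBEC2, a muscle protein of the deaminase family, was at least 8.12-fold higher (1.23-fold; adjusted p = 0.00353 and 2.96e-06). CACNG1, RYR1 and APOBEC2 were not well above background on any 24 h array. Neither they nor CKM were called when only these 6 arrays were in the fit. Genes lower only without replicate 1, named after their values were seen, included CACNB1 and JPH1, of which JPH1 was not well above background on replicates 2 and 3.

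On replicate 1, 49 of 60 sarcomere genes (81.7%) and 30 of 43 genes of the second muscle list (69.8%) lay more than 2-fold above both other confluent arrays. Over all genes the share was 6.14%. The share was also above this in the Notch (25%), collagen and matrix (21.6%), matrix protease (19%), IGF, TGF-beta and BMP (17.6%) and YAP lists (16.7%), and it was 0% in the S phase, G2 and M phase, complement and HLA class II lists. The muscle lists held larger shares of such genes than any of these.

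**Figure D2:**
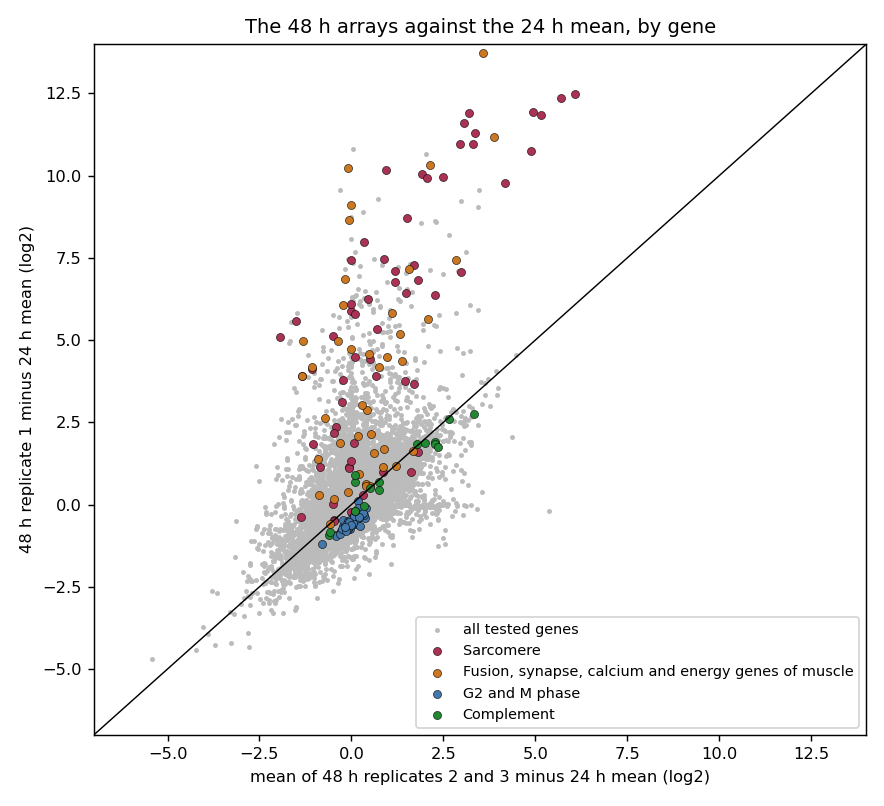
Each point is a gene, plotted by the log2 difference from the 24 h mean on replicates 2 and 3 (x axis) and on replicate 1 (y axis), and the line marks equal values. Sarcomere genes (dark red) and the second muscle list (orange) lie mostly above the line, complement genes (green) near it or below, and G2 and M phase genes (blue) near the origin.

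The promoters of the muscle genes were searched for CAGCTG, an E-box core that MyoD-type factors bind, which reads the same on both strands. A window of 250 bases before to 50 after the start was at hand for 14097 of the 18398 genes (RefSeq, GRCh38.p14), and 17.8% of these held the motif. The share was 35.7% in all 42 sarcomere promoters and 35.7% (5 of 14) in those higher in both fits. In the second muscle list it was 35.5% of all 31 promoters and 55.6% (5 of 9) of those higher in both fits. The motif was thus as frequent in the sarcomere list as a whole as among its members that rose. The windows below, each on the minus strand and printed 5′ to 3′ with the motif in capitals, are those of a gene with a large rise on every confluent array (MYBPH, chr1:203175777-203176076), a leading thin filament gene (TNNT2, chr1:201377631-201377930) and a gene whose level depended strongly on replicate 1 (CKM, chr19:45322826-45323125).
MYBPH: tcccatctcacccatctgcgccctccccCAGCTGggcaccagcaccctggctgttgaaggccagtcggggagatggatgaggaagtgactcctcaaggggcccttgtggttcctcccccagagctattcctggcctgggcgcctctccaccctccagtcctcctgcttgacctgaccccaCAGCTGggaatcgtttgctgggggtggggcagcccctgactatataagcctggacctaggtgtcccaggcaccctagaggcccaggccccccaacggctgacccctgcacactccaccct
TNNT2: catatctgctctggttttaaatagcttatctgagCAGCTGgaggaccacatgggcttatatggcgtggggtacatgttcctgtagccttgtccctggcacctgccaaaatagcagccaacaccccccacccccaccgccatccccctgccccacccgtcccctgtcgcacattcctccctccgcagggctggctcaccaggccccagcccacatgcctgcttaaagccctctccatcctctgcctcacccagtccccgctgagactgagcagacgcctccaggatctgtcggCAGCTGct
CKM: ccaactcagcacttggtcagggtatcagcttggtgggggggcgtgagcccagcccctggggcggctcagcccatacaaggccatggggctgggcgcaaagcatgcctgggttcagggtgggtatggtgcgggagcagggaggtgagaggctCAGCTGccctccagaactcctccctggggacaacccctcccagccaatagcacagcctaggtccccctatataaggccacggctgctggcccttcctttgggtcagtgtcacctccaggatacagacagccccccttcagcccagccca
MYBPH and TNNT2 hold 2 matches each and CKM holds 1. A match describes these letters only.

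Among 23 tested myogenic regulators, 4 were higher (17.4%) and 2 lower (8.7%), beside 5.85% and 3.56% of all genes. Without replicate 1 the counts were 3 and 2 (13% and 8.7%, beside 5.02% and 3.67%). MYOD1 was 15.70, 15.61 and 15.62 at 24 h against 16.17, 15.43 and 15.46 at 48 h, with a difference of 0.05 (adjusted p = 0.819) and of -0.20 (adjusted p = 0.012) without replicate 1. MYF5 changed by -0.97 (adjusted p = 0.00202), less than 2-fold. PAX7, a factor of quiescent satellite cells, stayed near background (3.84 to 5.23 over the 6 arrays). MYOD1 and MYF5 were well above background on all 6 arrays.

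MYOG, the myogenin gene, was well above background on 1 of 3 arrays at 24 h (4.98, 4.70 and 4.14) and on all 3 at 48 h (9.42, 5.92 and 5.76). Its difference was 2.43 ± 0.61 (adjusted p = 0.00338), and 1.23 ± 0.35 (adjusted p = 0.00876) without replicate 1. MYOG was not called when only these 6 arrays were in the fit. MEF2C, a partner of MyoD factors in late muscle genes, was 8.90, 9.04 and 8.84 at 24 h against 13.82, 9.39 and 9.46 at 48 h. Its difference of 1.96 (adjusted p = 0.0242) fell to 0.50 (adjusted p = 0.0178) without replicate 1, which ends the call. MYOG and MEF2C were higher on every confluent array, by a small margin on replicates 2 and 3.

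SOX8 was more even, at 9.42, 9.31 and 9.43 against 12.34, 11.54 and 11.57 (difference 2.43, and 2.17 without replicate 1). HES6, a basic helix-loop-helix factor that opposes HES1, rose by 3.09 (1.61), and 4 of its probes were higher. ID1 went from 14.28, 14.27 and 14.12 to 12.11, 12.40 and 12.63 (difference -1.84 ± 0.10, adjusted p = 1.07e-10). ID1 and ID3 were lower on all 3 confluent arrays, and replicate 1 did not have the lowest ID3. ID2, named after its values were seen, changed by -0.66 (adjusted p = 0.000131).

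Cell cycle genes moved little. Of 54 tested genes of DNA replication and S phase, 0 were higher and 0 lower in either fit, with a median difference of -0.26 (-0.14 without replicate 1). By adjusted p alone, 3 were higher and 22 lower with 29 arrays, and 4 and 14 without replicate 1. Of 49 genes of G2 and M phase, 0 were called in either fit, and by adjusted p alone 0 were higher and 9 lower (1 and 3 without replicate 1). Their median was -0.20, and -0.02 without replicate 1. Over all genes, adjusted p alone called 17.1% higher and 21.6% lower with 28 arrays, and 3278 higher and 4344 lower of 18398 with 29. Shifts in these lists were thus under 2-fold. Without replicate 1, 38 of 54 S phase differences and 27 of 49 G2 and M phase differences were negative, beside 9924 of 18398 over all genes, and the G2 and M phase median was close to that of all genes (-0.04).

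The array medians showed the same. The S phase list was 11.14, 11.13 and 11.11 at 24 h, 10.54 on replicate 1 and 10.95 and 11.03 on replicates 2 and 3. The G2 and M phase list was 11.59, 11.60 and 11.61 at 24 h, 10.95 on replicate 1 and 11.44 and 11.54 on the others. In nontargeting cultures in differentiation media at 48 h, the same lists had medians of 8.58 to 8.84 and 6.83 to 7.15. Confluent cultures in growth media thus kept higher medians of both lists than cultures labelled 48 h in differentiation media. The methods describe a later switch to differentiation media, so hours after transfection may differ too.

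MKI67, the proliferation antigen, was 10.87, 10.88 and 11.24 at 24 h against 10.69, 11.29 and 11.36 at 48 h (difference 0.12, adjusted p = 0.699). TOP2A, a topoisomerase of dividing cells, changed by -0.22 (adjusted p = 0.559) and the mitotic cyclin CCNB1 by -0.11 (adjusted p = 0.502). The groups overlapped in MKI67 and TOP2A. In CCNB1 replicate 1 was the lowest array (13.37).

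Of 19 cyclin D, CDK inhibitor and pocket protein genes, CDKN1C was the 1 called, and it rose. CDKN1A, the CDK inhibitor p21, changed the other way, from 10.87, 10.84 and 10.77 to 10.24, 10.13 and 9.83 (difference -0.76 ± 0.16, adjusted p = 0.000943). CCND1, cyclin D1, changed by -0.50 (adjusted p = 0.000409). Neither passed 2-fold. Of 25 p53 targets, 0 were higher and 2 lower, FDXR and TNFRSF10C (named after their values were seen), and 0 without replicate 1. Of 57 replication-dependent histone genes, 0 were called in either fit (median -0.04 and 0.05).

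**Figure D3:**
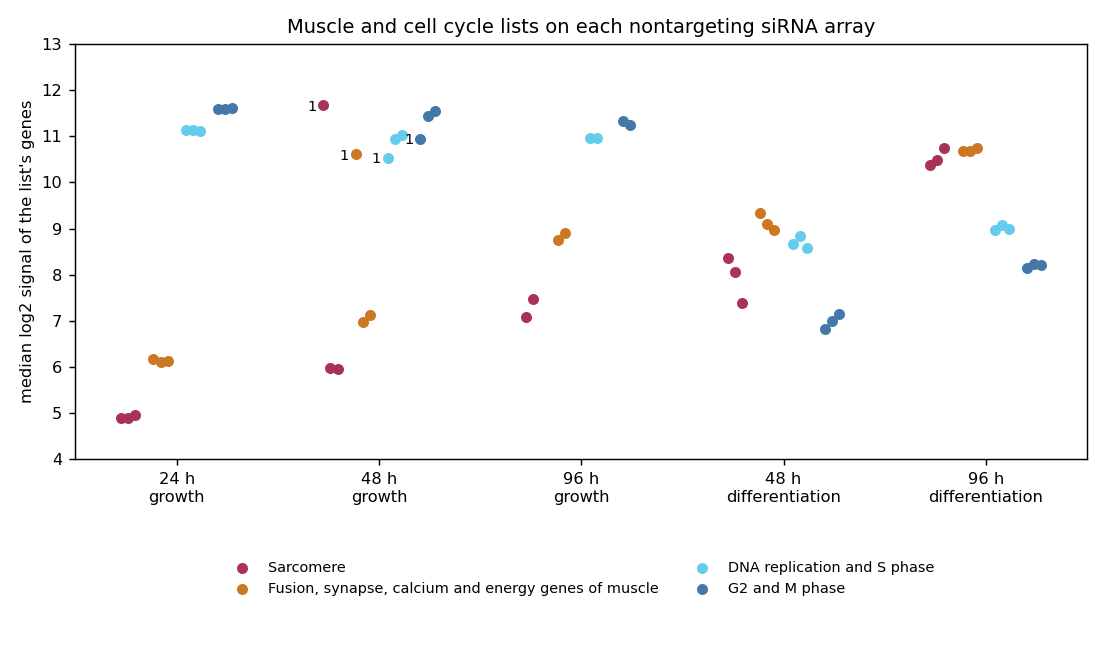
Median log2 signal (y axis) of 4 gene lists on each nontargeting array, by time and media (x axis), with 48 h growth replicate 1 marked 1. Sarcomere medians run from 4.89 at 24 h to 5.96 and 5.98 on replicates 2 and 3 but 11.67 on replicate 1, while the cell cycle lists stay above 10 in growth media.

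A set of 7 complement genes rose evenly on all 3 confluent arrays. Complement proteins tag and lyse microbes, and many are made by mesenchymal cells. This list, and those of apolipoproteins and HLA class II, were written after the leading genes had been seen, so their counts only describe. Of 17 tested complement genes, 7 were higher and 0 lower in both fits, with a median of 0.65 (0.75 without replicate 1), against a background of 5.85% higher. C3, the central component, was 8.42, 8.46 and 8.59 at 24 h against 11.25, 11.87 and 11.77 at 48 h (difference 3.14 ± 0.19, adjusted p = 2.5e-10). It was the largest change of the list, and replicate 1 was the lowest of the confluent arrays.

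The protease C1R rose from 14.60, 14.60 and 14.58 to 16.50, 16.84 and 16.87 (difference 2.14 ± 0.09, adjusted p = 1.02e-12). Its partner C1S rose by 2.13. CFI, a regulator that cleaves activated C3, rose by 2.63, CFB of the alternative pathway by 2.15, C2 by 1.96 and the C1 inhibitor SERPING1 by 1.81. All 7, picked because they were called, had no overlap between the groups, beside 21.8% of all genes that lay fully above. CD59, which blocks the lytic pore, changed by -0.72 (adjusted p = 0.000199), under 2-fold.

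HLA class II genes, which present peptides to helper T cells, rose in part. Of 11 tested, 7 were higher (63.6%, beside 5.85% of all genes) and 0 lower in both fits (median 1.19, and 1.35 without replicate 1). HLA-DQA1 was 6.54, 6.30 and 6.78 at 24 h against 8.94, 9.63 and 9.58 at 48 h (difference 2.84 ± 0.28, adjusted p = 1.6e-07). HLA-DRA was 11.73, 11.71 and 11.73 against 12.53, 13.13 and 13.08 (difference 1.19 ± 0.18, adjusted p = 2.34e-05). Probes of the class II genes can cross-hybridise between near-identical genes, so single genes are uncertain.

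CIITA, the master regulator of class II genes, was 10.23, 10.24 and 10.16 at 24 h against 9.06, 9.61 and 9.82 at 48 h (difference -0.72, adjusted p = 0.369). CD74, the invariant chain, changed by 0.40 (adjusted p = 0.263). Neither passed the test.

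Inflammatory genes split by member. Of 28 tested cytokines, chemokines and NF-kB targets, 6 were higher (21.4%) and 3 lower, and 7 and 3 without replicate 1. CCL2, a monocyte chemoattractant, was 6.14, 5.98 and 6.36 at 24 h against 8.68, 8.86 and 9.04 at 48 h (difference 2.70 ± 0.34, adjusted p = 2.97e-06). SOD2, the mitochondrial superoxide dismutase, rose by 1.72 (adjusted p = 4.51e-09). The neutrophil chemokine CXCL3 went the other way, from 10.72, 10.66 and 10.65 to 8.26, 8.69 and 8.96 (difference -2.04, adjusted p = 0.000265), as did CSF3. CCL2, SOD2, CXCL3 and CSF3 had no overlap, beside 21.8% of all genes that lay fully above and 30.6% fully below. They were picked because they were called, and CSF3 also because its groups did not overlap, so this only describes them.

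IL6 had a pair of probes with differences of -0.13 and 1.13, so its call rests on 1 probe. Also higher, named after their values were seen, were the adhesion genes ICAM1 (1.66) and VCAM1 (1.61) and the NF-kB inhibitor TNFAIP3 (1.45 without replicate 1), and CXCL2 was lower (-1.49). CXCL8, called without replicate 1 alone, was not well above background on any of the 6 arrays. Of 40 interferon-stimulated genes, 4 were higher (10%, beside 5.85% of all genes) and 0 lower (median 0.29). Without replicate 1 the counts were 3 and 1 (7.5% and 2.5%, beside 5.02% and 3.67%). IFITM1 rose by 1.81 (1.35) and PARP14 by 1.19. CMPK2 was called, but its groups overlapped and 1 of 3 arrays in each was well above background, so no size is given. BST2, lower only without replicate 1 and named after its values were seen, was not well above background on replicates 2 and 3. ISG15 changed by 0.17 (adjusted p = 0.585).

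Of 13 apolipoprotein genes and LXR targets, 4 were higher (30.8%, beside 5.85% of all genes) and 0 lower in both fits. LXR is a nuclear receptor that senses oxysterols. Beside APOE and APOC1 these were APOL1 (1.10) and ABCG1, a sterol exporter not well above background at 24 h (means 2.59 and 5.28), which was at least 1.67-fold higher (adjusted p = 0.00118). ABCA1, another LXR target, changed by -0.44 (adjusted p = 0.000507).

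Genes of cholesterol and fatty acid synthesis mostly had lower values at 48 h, by small amounts. SREBP factors switch on these genes when cells lack sterol. Of 34 tested, 0 were higher and 2 lower, with a median of -0.38, and without replicate 1, 0 were higher and 3 lower, with a median of -0.47. The background for lower genes was 3.56% and 3.67%. Without replicate 1, 33 of 34 differences were negative, and by adjusted p alone 26 were lower and 0 higher. Of all 18398 genes, 9924 differences were then negative, and adjusted p alone called 21.6% lower and 17.1% higher. With 29 arrays, 19 of the list were lower by adjusted p alone and 0 higher, beside 4344 lower and 3278 higher of all genes.

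INSIG1, which holds SREBP in the endoplasmic reticulum, was 12.71, 12.87 and 12.85 at 24 h against 11.73, 10.93 and 11.21 at 48 h (difference -1.52 ± 0.16, adjusted p = 2.15e-07). HMGCS1, an early enzyme, was 9.65 on replicate 1 and 8.57 and 8.47 on the others, against 9.14 to 9.32 (difference -0.33, adjusted p = 0.172, and -0.71, adjusted p = 8.76e-06, without replicate 1).

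Called lower only without replicate 1 were the enzymes MSMO1 (-1.18) and MVD (-1.03). Named after its values were seen, FASN, the fatty acid synthase, changed by -0.82 and PNPLA3, a lipase outside the list, by -2.23 (adjusted p = 9.37e-11). Replicate 1 lay above replicates 2 and 3 in INSIG1, HMGCS1, MSMO1, MVD, FASN and PNPLA3.

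**Figure D4:**
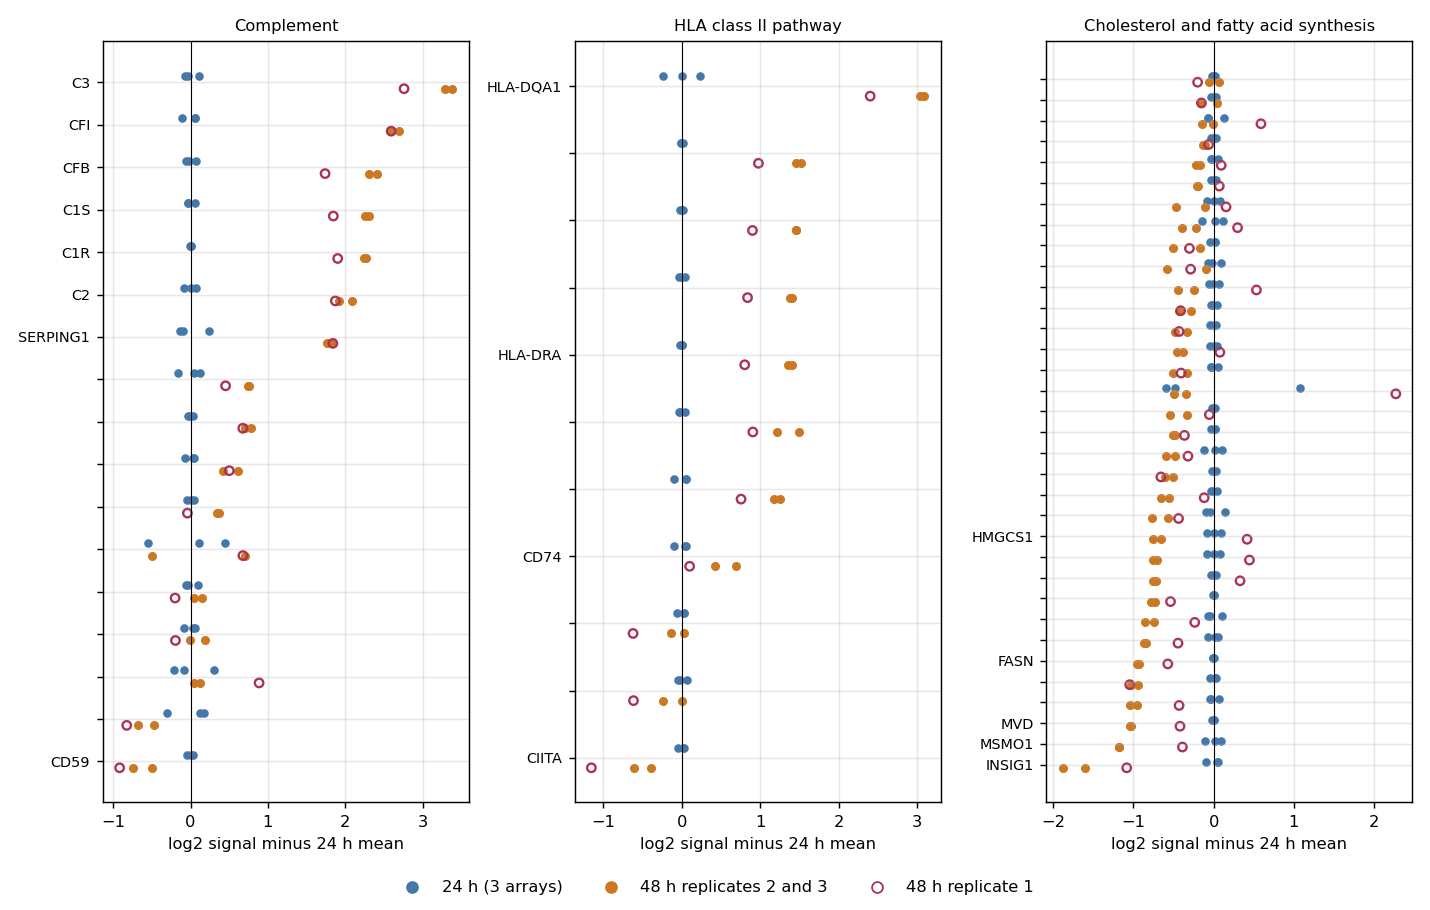
Log2 signal minus the 24 h mean (x axis) for each tested gene of the complement, HLA class II and cholesterol and fatty acid lists (y axes, with the genes named in the text labelled), with 24 h arrays in blue, 48 h replicates 2 and 3 in orange and replicate 1 as an open circle. Complement genes from C3 to SERPING1 are above 1 on every confluent array, and most sterol genes lie between 0 and -1 with replicate 1 often to the right.

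Matrix genes changed in both directions. Of 51 tested collagens and matrix genes, 9 were higher (17.6%) and 6 lower (11.8%), with a median of 0.35 (0.20 without replicate 1). Without replicate 1 they were 9 and 7 (17.6% and 13.7%). The shares of all genes were 5.85% and 3.56%, and 5.02% and 3.67% without replicate 1. LOXL4, a lysyl oxidase that crosslinks collagen, rose from 6.72, 6.74 and 7.04 to 9.38, 9.45 and 9.55 (difference 2.63 ± 0.22, adjusted p = 2.05e-08). MFAP4, a microfibril protein, rose by 2.08 (adjusted p = 5.16e-09) and the laminin LAMA5 by 1.85 (adjusted p = 7.04e-10). These 3 genes rose on each confluent array.

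COL15A1, a basement membrane collagen, was 5.69, 5.63 and 5.15 at 24 h against 4.98, 2.13 and 2.57 at 48 h, where 1 of 3 arrays was well above background. Its difference was -2.26 (adjusted p = 0.00046). Without replicate 1 no 48 h array was well above background, and it was at least 2.17-fold lower (adjusted p = 2.84e-08; measured difference -3.14). COL1A1, the main fibrillar collagen, was 13.01 to 13.08 at 24 h against 15.30, 13.43 and 13.31 at 48 h (difference 0.96, adjusted p = 0.0171), and 0.31 (adjusted p = 0.0533) without replicate 1. Named after their values were seen, COL3A1 (1.54) and LUM (1.61) were higher, and COL7A1 (-1.56), LOXL3 (-1.35), FBLN5 (-1.24) and FBLN1 (-1.12) were lower.

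Of 21 matrix proteases and inhibitors, 4 were higher (19%) and 2 lower (9.52%), beside 5.85% and 3.56% of all genes. Without replicate 1 the counts were 2 and 2 (9.52% each, beside 5.02% and 3.67%). Beside MMP3, the collagenase MMP1 was lower (-1.24, adjusted p = 3.89e-06). The inhibitor TIMP3 rose by 1.14 (adjusted p = 1.55e-07). MMP9, a gelatinase, was 9.36 on replicate 1 and 6.36 and 6.40 on the others, against 5.02 to 5.70 (difference 2.01, and 1.01 without replicate 1).

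Contact and contact-signaling genes moved in part. Of 34 tested cadherin and junction genes, 7 were higher (20.6%) and 3 lower (8.82%), beside 5.85% and 3.56% of all genes. Without replicate 1 the counts were 5 and 2 (14.7% and 5.88%, beside 5.02% and 3.67%). CADM1, an immunoglobulin-type adhesion molecule, was 5.72, 5.59 and 4.48 at 24 h against 7.21, 7.82 and 7.97 at 48 h (difference 2.40 ± 0.34, adjusted p = 1.42e-05). JUP, plakoglobin, was called at 2.40 (adjusted p = 0.00263), but its confluent arrays were 7.16, 9.45 and 5.21. CDH4 and CDH10, both cadherins, were not well above background at 48 h and were at least 2.98-fold and 1.49-fold lower (adjusted p = 0.000259 and 1.05e-06; means 5.77 to 3.76 and 4.77 to 2.06).

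CDH2, N-cadherin, changed by -0.48 (adjusted p = 0.00269). CDH15, the muscle M-cadherin, was 13.74, 13.81 and 13.66 at 24 h against 14.98, 13.02 and 13.04 at 48 h (difference -0.06, adjusted p = 0.919), and -0.71 (adjusted p = 2.3e-07) without replicate 1. Replicate 1 alone of the confluent arrays lay above the 24 h arrays in CDH15.

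YAP and TEAD targets showed no one direction in their calls. Of 24 tested, 2 were higher and 2 lower in both fits (8.33% each, beside 5.85% and 3.56% of all genes). Without replicate 1 the median was -0.37, and 17 of 24 differences were negative, beside 9924 of 18398 over all genes. CCN2, a matricellular factor, was 9.67, 9.75 and 9.67 against 9.03, 8.93 and 8.98 (difference -0.72, adjusted p = 9.37e-05), and CCN1 changed by -0.45 (adjusted p = 0.0528). ANKRD1, which is also a muscle gene, was 12.33 on replicate 1 and 6.41 and 6.32 on the others, against 5.91 to 6.33 (difference 2.21, adjusted p = 0.0627). AMOTL1, a junction protein that binds YAP, rose by 1.24, and DOCK5 (-1.25) and RBMS3 (-1.01) were lower. The other probes of AMOTL1 (0.63) and DOCK5 (-0.70) were under 2-fold.

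Of 24 Notch pathway genes, 2 were higher (8.33%) and 1 lower (4.17%), beside 5.85% and 3.56% of all genes. Without replicate 1 the counts were 2 and 2. HEY1, a direct target, was 7.90, 7.85 and 7.63 at 24 h against 9.88, 6.63 and 6.97 at 48 h (difference 0.03, adjusted p = 0.982), and -0.99 (adjusted p = 9.01e-05) without replicate 1. The sign of HEY1 thus depended on 1 array. HES1 had signals of 2.20 to 4.68 over the 6 arrays and is not read further. The ligand DLL3 was lower (-1.51, adjusted p = 0.000123). The coactivator MAML3 was called at 1.12 on 1 of 3 probes (lowest -0.05), and 9 of 22 alternatives kept that call.

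Genes of IGF, TGF-beta and BMP signaling were called at a share near the background without replicate 1. Of 34 tested, 3 were higher (8.82%) and 0 lower (median 0.19), and without replicate 1, 2 were higher (5.88%, beside 5.02% of all genes) and 1 lower. IGF2, an autocrine factor of myoblasts, was 15.27, 15.16 and 15.05 at 24 h against 18.10, 16.45 and 16.52 at 48 h (difference 1.86 ± 0.25, adjusted p = 6.54e-06), and 1.32 ± 0.08 (adjusted p = 7.84e-10) without replicate 1. IGFBP3, which binds IGFs, rose by 2.11 (1.33 without replicate 1; adjusted p = 7.7e-05). Of 28 genes of the growth factor response, 3 were higher and 0 lower, with EGR1 at 1.18 and SPRY1, a feedback inhibitor of this signaling, at 1.08.

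Dexamethasone was part of the growth media, and glucocorticoid and FOXO targets moved both ways. Of 21 tested, 3 were higher and 3 lower in both fits (14.3% each, beside 5.85% and 3.56% of all genes). KLF9 was 11.85, 11.73 and 11.75 at 24 h against 12.96, 13.03 and 13.07 at 48 h (difference 1.24 ± 0.07, adjusted p = 4.26e-11). IRS2, an insulin receptor substrate, went from 12.66, 12.64 and 12.55 to 10.63, 10.86 and 10.97 (difference -1.79, adjusted p = 2.25e-10). ANGPTL4, which inhibits lipoprotein lipase, changed by -1.42 and MAOA by -1.51. KLF9 and IRS2 had narrow spreads in both groups.

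Other stress and metabolic lists were nearly flat. Of 33 hypoxia and glycolysis genes, 0 were called with 29 arrays, and 2 were higher without replicate 1, MXI1 (1.06) and TXNIP, a glucose-responsive inhibitor of thioredoxin (difference 0.96, and 1.09 without replicate 1). Of 28 amino acid and ER stress genes, 2 were higher and 2 lower (7.14% each, beside 5.85% and 3.56% of all genes), and 1 and 2 without replicate 1. SLC7A11, the cystine importer, went from 10.93, 11.03 and 11.02 to 9.13, 8.56 and 8.64 (difference -2.22 ± 0.14, adjusted p = 6.49e-10), PPP1R15A changed by -1.10 and the serine synthesis enzyme PSAT1 rose by 1.16.

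Of 26 lysosome and autophagy genes, 4 were higher (15.4%, beside 5.85% of all genes) and 0 lower in both fits. They were the proteases CTSB (1.20), TPP1 (1.18) and CTSF (1.15) and the autophagy gene GABARAPL1 (1.26). TPP1 rests on 1 of its 2 probes (differences -0.15 and 1.18), and the other probe of GABARAPL1 changed by 0.67. Of 11 metallothioneins and zinc genes, MT1F was the 1 called higher (1.08, adjusted p = 0.0358), and 10 of 22 alternatives kept that call. Of 22 SRF targets, FHL1 (1.48) and TAGLN (1.11) were higher in both fits. Of 15 housekeeping genes, 0 were called in either fit.

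**Figure D5:**
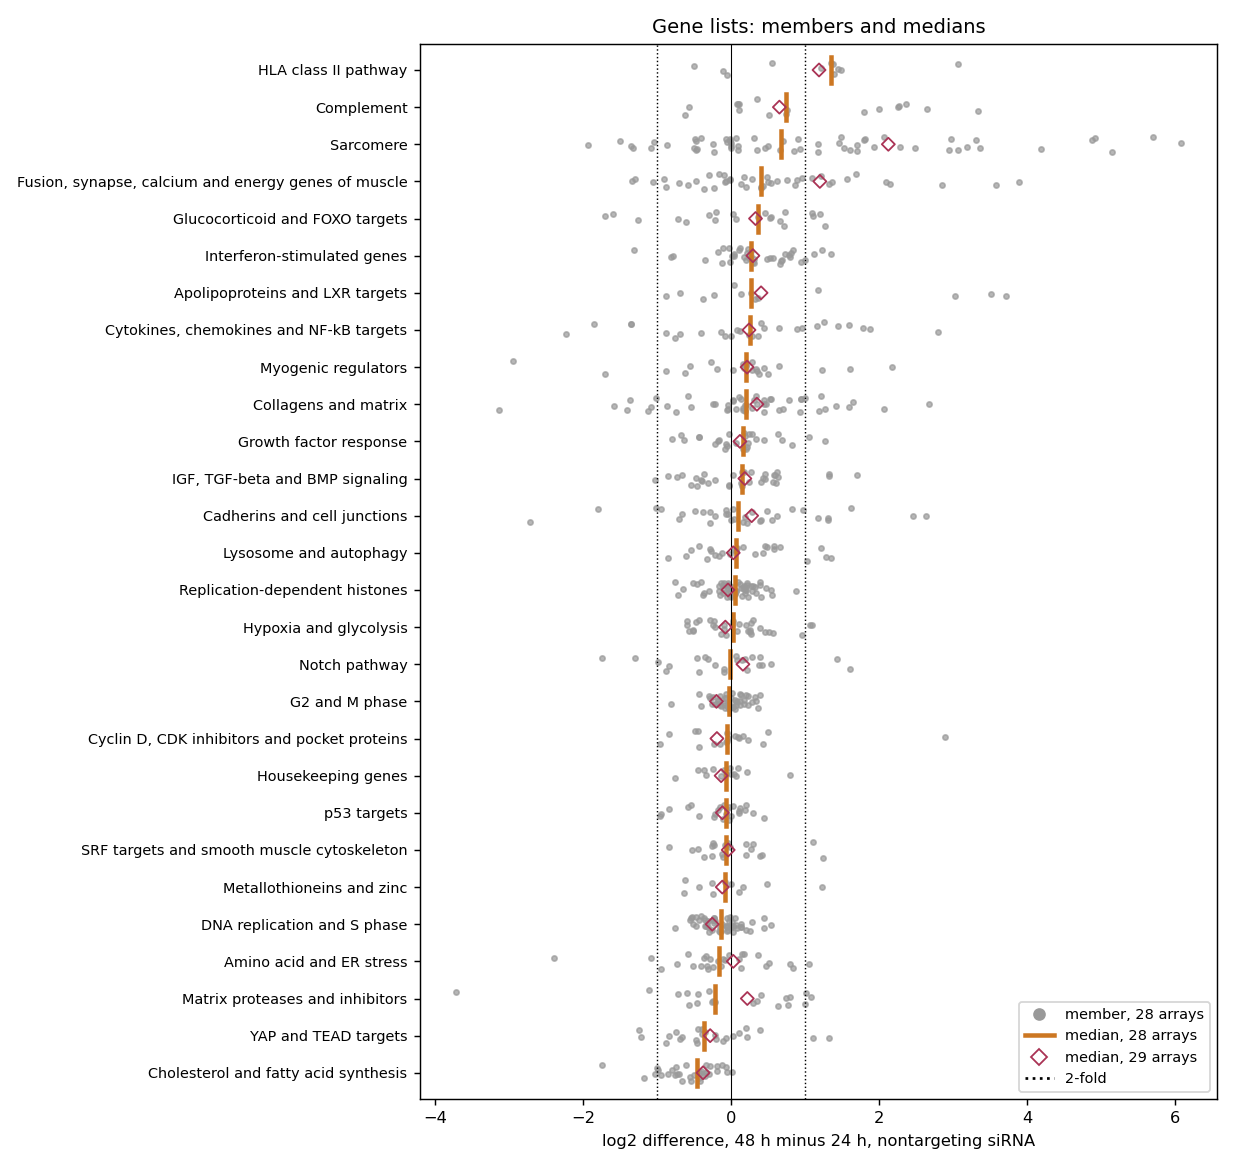
Log2 difference from 24 to 48 h (x axis) of each tested gene of each list (grey, 28 arrays), with the median with 28 arrays (orange bar) and with 29 (open diamond), and dotted lines at 2-fold. Medians with and without replicate 1 are far apart in the sarcomere list (2.13 and 0.68) and close in the complement and cholesterol lists.

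The cells carried the marks of muscle in both groups. All 10 myoblast markers were tested, 9 of them were well above background on all 6 arrays, and 3 were higher at 48 h (1 without replicate 1). Their summed signal was 141611 to 146193 at 24 h against 400705, 188713 and 181789 at 48 h. Of 8 myotube markers, 7 were higher (6 without replicate 1), and their summed signal was 17733 to 18682 at 24 h against 705324, 32207 and 26679 at 48 h. MYMK, the gene of the fusion protein myomaker, was 14.10 to 14.17 at 24 h against 14.47 to 14.78 at 48 h on its brighter probe. Its pair of probes differed, with changes of 0.52 and 2.56.

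Markers of other cell types were checked beside the complement, HLA and cytokine results. Of 4 tested immune markers, 2 were higher (1 without replicate 1), with a summed signal of 1124 to 1233 at 24 h against 1914 to 2703 at 48 h. CD14, a lipopolysaccharide co-receptor, was 7.90, 7.70 and 7.71 at 24 h against 10.44, 11.02 and 11.05 at 48 h (difference 3.07 ± 0.25, adjusted p = 1.6e-08). PTPRC, the leukocyte marker CD45, was dim at 4.69 to 5.06 against 5.85 to 5.90 (difference 1.00, adjusted p = 0.000118), and 1 of its 4 probes was called. The macrophage receptor CSF1R changed by -0.94, and the T cell marker CD3E was well above background on 1 array in each group. The part of these signals in the complement and HLA values was not tested.

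Endothelial markers summed to 240 to 319 at 24 h against 325 to 567 at 48 h, and 1 of 6 (CLDN5) was higher with 29 arrays and 0 without replicate 1. Of 5 pericyte markers 2 were higher in both fits, the potassium channel genes KCNJ8 (at least 6.69-fold, and 5.39-fold without replicate 1; adjusted p = 9.62e-08; means 4.59 and 7.47) and ABCC9 (1.71, and 1.06 without replicate 1, on 1 of 2 probes). Their sum was 2758 to 2958 at 24 h against 12453, 2796 and 2758 at 48 h. Of 4 fibroblast-adipogenic markers CD34 was the 1 higher (at least 1.44-fold; adjusted p = 5.19e-05; means 3.03 and 5.07), with sums of 231 to 267 and 513 to 584. Of the adipocyte (2), epithelial (3) and glial (2) markers tested, 0 were called. ADIPOQ, EPCAM, CDH1 and SOX10 were not well above background on any of the 6 arrays. The endothelial, pericyte and fibroblast-adipogenic sums were all higher on replicate 1 than at 24 h, and for the pericyte markers the sum on replicates 2 and 3 was within the 24 h range.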

How the data were processed

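Total RNA of each culture was labelled with Cy3 and hybridised to a 1-colour Agilent array. The deposited spot intensity values were processed by the authors with Agilent Feature Extraction 10.7.3.1, which subtracts background, and their deposited table of normalized log2 values was used as an alternative. Control and outlier spots were left out, spots of a probe (58201 probes) were averaged, and log2 signals were quantile-normalized over the 29 arrays. Tests covered the 38714 probes that 2 or more arrays read well above background, in 1 limma fit (version 3.58.1, R 4.3.3) of 10 group means with Benjamini-Hochberg adjustment. Errors printed as ± are standard errors of the difference on the log2 scale with 3 arrays a group (2 at 48 h without replicate 1). The spread behind these errors and the p-values was estimated over all 10 groups. They therefore do not measure the spread of the 2 compared groups alone, which was wider where replicate 1 stood apart. Symbols came through RefSeq accessions, which named 31104 probes of 22439 genes, and each gene was read from its brightest tested probe. A fold written as "at least" sets the brighter group against the detection floor of the dim group. The array number limits the precision.

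The members and gene lists were chosen with earlier results of these data known. Text genes were the 10 leading rises and falls, up to 4 members of each list called in both fits, key genes and cell type markers, and others are marked as named after their values were seen. The replicate numbers were checked for pairing by the correlation of same-numbered deviations across probes (0.047, -0.069 and -0.074), which gave none. Code was tested on simulated data. Scaling, background correction, probe filter, variance model, slide block, replicate block, the methods' t test and leaving out each array were tried as alternatives. Single values of a few genes counted in the lists are not reported here.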

Additional observations from a re-analysis of the deposited data

Results flagged for a closer look

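For 9 of the 20 leading genes, the change from 24 to 48 h differed between ZNF148 siRNA and nontargeting siRNA in a test of that difference in the same limma fit (values without replicate 1 at 48 h, adjusted over all tested probes). For these 9 it passed with more than 2-fold both with and without that array. For MYBPH, RGS16, TMEM119, CDKN1C and ID3 it passed at that size only without it. The share of all tested genes that passed this test is not given, so the count of 9 only describes. The 20 genes were also picked by their change with nontargeting siRNA, which is 1 side of the difference. The rise was larger with ZNF148 siRNA for TNNT2, by 4.48 on the log2 scale (7.45 against 2.98, adjusted p = 6.04e-11), for SOD3, by 3.41 (6.83 against 3.43, adjusted p = 6.75e-14), and for IL32, by 3.18 (6.21 against 3.03, adjusted p = 6.2e-07). The fall was larger for CSF3 (difference -3.74, adjusted p = 8.2e-10), TDRD9 (-2.63, adjusted p = 4.34e-05), MMP3 (-2.26, adjusted p = 3.14e-09) and KCNQ5-IT1 (-1.86, adjusted p = 3.95e-05). It was smaller for CD24 (2.49, from -5.43 to -2.94, adjusted p = 5.76e-11) and LYPD6 (1.53, adjusted p = 0.0142). With replicate 1 in the fit the 9 differences kept their sign and passed the threshold.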

How the results depend on the processing

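No call of a named gene reversed its direction under any alternative. Of 98 genes named, 78 were called, and 28 of these kept their call under all 22 alternatives. Values that were not calls did change sign. Without replicate 1 at 48 h, HEY1 went from 0.03 to -0.99. The median of the matrix protease list went from 0.22 to -0.21 and that of the Notch list from 0.16 to -0.01. With only the 6 arrays in the fit, 21 genes lost their call. Beside RGS16, TNNT2 and CDKN1C these included CKM, MYH3, MYH8, MYOG, MEF2C, HES6, TNNC2, RYR1, CACNG1 and APOBEC2. IGFBP3, JUP, MMP9, IFITM1 and COL15A1 were also among them. Genes higher and lower at 48 h were 3278 and 4344 by adjusted p alone, with no fold threshold (probes 6632 and 7942). Normexp background correction left 421 and 163 (probes 743 and 325). Genes higher were 672 with only the 6 arrays in the fit, 706 with quantile normalization of the 6 arrays alone and 511 with the methods' t test after Benjamini-Hochberg adjustment (probes higher 1239). Unadjusted, the methods' t test gave 774 and 656 genes. The replicate block in all 29 arrays gave 1067 and 660 genes, and in the 6 arrays alone 322 and 316 (probes 742 and 899). Leaving out 1 array at a time gave 870 to 1282 genes higher and 630 to 676 lower (probes 2006 to 2920 and 1760 to 1935). The share of called probes that were higher was 56.4%, 69.1% with 75th percentile scaling (3599 and 1610 probes) and 69.6% with normexp. In other alternatives lower probes outnumbered higher ones. The share was 47.8% with only the 6 arrays in the fit and 47.4% with quantile normalization of these alone. The replicate block in the 6 arrays gave 45.2%, and adjusted p alone 45.5%. The methods' t test gave 49.7% unadjusted and 46.1% after Benjamini-Hochberg adjustment. Scanner files held median signals, on which normexp was run. The cause of these shifts was not tested. Probes near background carry only a bound, and replicate 1 at 48 h decided the size of most muscle changes.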
